A study of Mus musculus with 8 samples.

Results

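Collagen chain genes were followed on arrays of whole mouse embryos at embryonic day 9.0. The set was all probes whose gene name in the array files is a collagen chain symbol, 78 of 41174 probes. They named 40 genes, which were 11 fibrillar chains, 8 chains of basement membranes and 21 other chains. A total of 36 of the 40 genes were tested, among 17099 genes in all, each by its brightest usable probe. The other 4, Col4a3, Col10a1, Col19a1 and Col28a1, had no probe that rose well above background on 4 or more of the 8 arrays.

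The study compared 4 pools of wild-type embryos with 4 pools of Arid3b-null embryos, each pool holding 3 to 4 whole embryos. Arid3b belongs to the ARID family of proteins, which bind AT-rich DNA. How the null allele was made, the strain, the sexes and the litters are not stated in the labels. The p-values therefore measure the spread between these pools, and in such bulk samples fewer cells of a type and less RNA per cell cannot be told apart.

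Collagens are proteins of the extracellular matrix in which chains wind around each other into a long helix. Only glycine is small enough for the core of that helix, so the chains repeat the motif glycine-X-Y. Fibrillar chains such as those of types I, II, III and V pack into tension-bearing fibres of mesenchyme, cartilage and vessel walls. Type IV chains form the sheet-like network under epithelia and around endothelium, together with laminins and nidogens. Fibril-associated, beaded-filament and transmembrane collagens link fibrils to each other, to basement membranes and to cells.

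The repeat can be read in the probes themselves. Glycine codons begin with GG, and one comes every 3 codons, so a probe inside the helix holds GG at steps of 9 bases. The string of 6 such GG at steps of 9 bases occurred in 3 of the 41174 probes, on the strand printed in the array files, and all 3 belonged to fibrillar collagens. They are shown with the in-step GG in capitals.
Col11a2: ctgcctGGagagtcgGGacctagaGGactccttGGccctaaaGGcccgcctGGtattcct
Col5a1: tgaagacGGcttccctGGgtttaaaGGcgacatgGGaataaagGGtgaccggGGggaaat
Col5a3: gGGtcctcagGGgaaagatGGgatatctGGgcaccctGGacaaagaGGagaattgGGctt
In the array files' mm7 coordinates the Col11a2 probe lies at chr17:32131401-32131567 on the plus strand, the Col5a1 probe at chr2:27994034-27996457 on the plus strand and the Col5a3 probe at chr9:20655471-20656200 on the minus strand. Each span is longer than the 60 bases of the probe. No annotation of mm7 was used here, so exons were not assigned. The Col5a1 and Col11a2 probes were usable, whereas the Col5a3 probe was not well above background on any array.

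Promoter sequence is shown for 3 genes of the basement membrane class on which the results turn: Col18a1, the collagen that passed the test, and the X-linked neighbours Col4a5 and Col4a6. RefSeq windows on GRCm38.p6 were matched by symbol for 32 of the 40 genes. Each stretch is the 250 bases before the start site, 5′ to 3′ in the direction of the gene. Capitals mark GGGCGG or its reverse complement CCGCCC (the GC box), CCAAT or ATTGG (the CCAAT box) and ACGTG or CACGT, none of which contains another.
Col18a1 (chr10:77166531-77166780, minus strand): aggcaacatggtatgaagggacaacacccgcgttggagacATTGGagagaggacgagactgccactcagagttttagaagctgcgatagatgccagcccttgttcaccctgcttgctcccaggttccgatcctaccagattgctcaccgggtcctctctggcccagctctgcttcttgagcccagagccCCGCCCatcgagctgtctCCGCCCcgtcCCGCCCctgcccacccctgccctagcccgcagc
Col18a1 (chr10:77113706-77113955, minus strand): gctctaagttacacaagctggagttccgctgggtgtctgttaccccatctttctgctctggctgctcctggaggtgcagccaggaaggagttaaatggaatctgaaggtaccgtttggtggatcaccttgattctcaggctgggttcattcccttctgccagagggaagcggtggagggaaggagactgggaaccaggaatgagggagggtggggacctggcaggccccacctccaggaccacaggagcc
Col4a5 (chrX:141475169-141475418, plus strand): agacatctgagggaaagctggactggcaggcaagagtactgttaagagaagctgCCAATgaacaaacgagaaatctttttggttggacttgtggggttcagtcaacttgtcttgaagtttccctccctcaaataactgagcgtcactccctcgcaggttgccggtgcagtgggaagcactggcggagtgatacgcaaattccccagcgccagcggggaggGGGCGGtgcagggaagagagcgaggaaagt
Col4a6 (chrX:141474077-141474326, minus strand): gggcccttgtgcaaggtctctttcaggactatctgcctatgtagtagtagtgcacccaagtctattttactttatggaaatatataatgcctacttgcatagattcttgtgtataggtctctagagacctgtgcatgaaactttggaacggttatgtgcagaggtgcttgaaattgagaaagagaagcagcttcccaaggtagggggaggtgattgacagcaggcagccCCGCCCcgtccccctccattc
The upstream Col18a1 stretch held 3 GC boxes and 1 CCAAT box, and the downstream Col18a1 stretch held none of these strings. The Col4a5 stretch held 1 GC box and 1 CCAAT box, and the Col4a6 stretch held 1 GC box. A GC box occurred in 19 of the 35 collagen windows (54.3%) and in 32.7% of all 32851 windows of that length. A CCAAT box occurred in 12 of 35 collagen windows (34.3%) and in 33.8% of all. ACGTG occurred in 4 of 35 collagen windows (11.4%) and in 16.6% of all. Col4a5 and Col4a6 are transcribed away from each other, with start sites 1343 bases apart. The start sites of Col4a1 and Col4a2 on chromosome 8 also face opposite ways and lie 21 bases apart.

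The label of the null pools was borne out by Arid3b itself, whose 3 probes stood at 30.8%, 39.2% and 30.2% of wild type, with 4 of 4 null pools below every wild-type pool on each. The labels do not say which part of the gene was deleted. The share of probes well above background ran from 59.9% to 64.1% over the arrays, and the arrays' 75th percentile signals were 1280 to 1703. Wild-type arrays sat at slide positions 1 and 2 and null arrays at positions 3 and 4 on both slides, so position and genotype cannot be told apart. Pools 1 and 2 of each group shared slide 1, and pools 3 and 4 shared slide 2. Values below are log2 processed signals relative to the 75th percentile of the array, which is 0 on this scale. Levels of different probes are not comparable, so each gene is set only against itself. The exception is the sums of cell type markers, in which brighter probes weigh more.

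Among the 36 collagen genes tested, 1 passed the test, Col18a1, which was higher in the null pools. Across all 17099 genes 4.2% passed (718 genes, limma with Benjamini-Hochberg adjusted p under 0.05), 2.85% higher and 1.35% lower in the null pools. With each array's median subtracted the calls over all genes were 106 higher and 98 lower, and without any shift 125 higher and 32 lower, against 487 and 231 here. No collagen was called lower by limma, and 7 of the 36 had an unadjusted p under 0.05, against 20.7% of all genes. The mean was higher in the null pools for 25 collagens and lower for 11, whereas 48.7% of all genes had the higher mean in the null pools. The median difference was 0.07, against -0.007 over all genes, and turned to -0.02 with each array's median subtracted and to -0.03 with normexp background correction. For 34 of 36 collagens, both 95% limits of the difference lay within 1 log2 unit of 0, as they did for 88.2% of all genes.

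**Figure D1:**
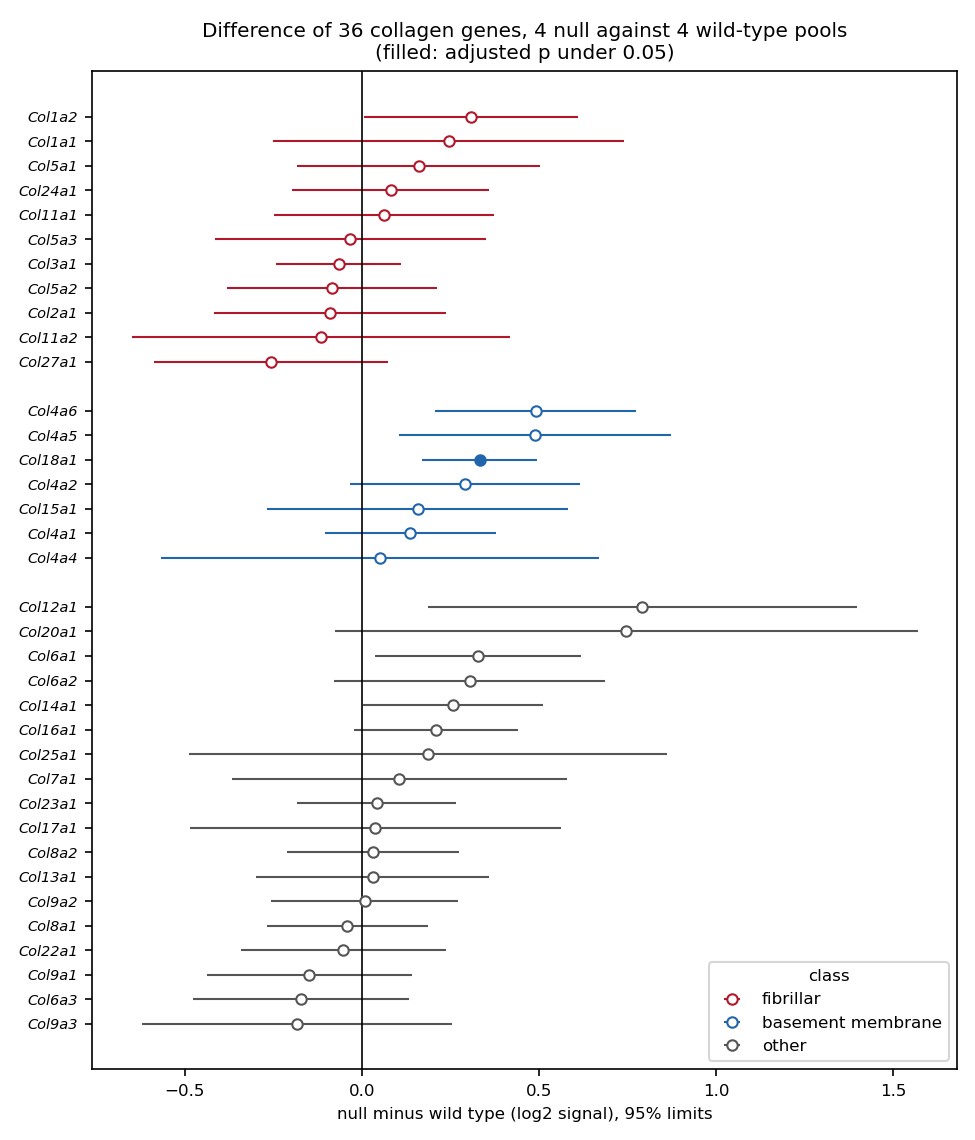
Differences between null and wild-type pools on the log2 scale (points, x axis) with their 95% limits (bars) for each of the 36 tested collagen genes (y axis), 4 pools a group, coloured by class. Col18a1 is the only filled point, the 7 basement membrane genes all lie at or to the right of 0.05, and the 11 fibrillar genes lie on both sides of 0, from -0.26 to 0.31.

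The labels number the replicates but do not say that pools were paired. Same-numbered wild-type and null pools deviated together from their group means over all genes. They also shared a slide, and pools of different numbers on a slide were not compared, so a pairing beyond the slide was not tested. With the replicate number as a block, 8 of the 36 collagens passed (limma, adjusted p under 0.05), all higher in the null pools: Col12a1, Col14a1, Col18a1, Col1a2, Col20a1, Col4a5, Col4a6 and Col6a1. In the same fit 13.7% of all genes passed, 7.78% higher and 5.92% lower. Of these 8 genes, 6 were well above background on all arrays. Col12a1 and Col20a1 passed the filter on dim probes only with the null pools counted, and they and Col6a1 had a lower mean in the null pools with normexp. With the slide as a block 2 collagens passed, Col18a1 and Col4a5, both higher, and 8.01% of all genes, 4.71% higher and 3.3% lower. In 13 collagens every null pool was above the wild-type pool of the same number, and in 5 every null pool was below it, against 22.4% and 24.1% of all genes.

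Basement membrane collagens were higher on average in the null pools, with a median difference of 0.29 over the 7 tested genes. All 7 had the higher mean there, and 6 of 7 with each array's median subtracted or without a shift, where Col4a4 turned, or with normexp, where Col15a1 turned. One of the 7, Col18a1, passed the test. The null pools were all above the wild-type pools for 2 genes, Col18a1 and Col4a6, which was so for 8.08% of all genes. No collagen had all null pools below all wild-type pools, which was so for 8.06% of all genes. The class median was 0.37 within slide 1 and 0.20 within slide 2.

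Col18a1 encodes the chain of a collagen and heparan sulphate proteoglycan of vascular and epithelial basement membranes, whose C-terminal fragment is endostatin. Its brightest probe (mm7 chr10:76707663-76707722, minus strand) read 5.24, 5.18, 5.17 and 5.07 in wild-type pools 1 to 4 and 5.49, 5.55, 5.53 and 5.42 in null pools 1 to 4. The lowest null pool was above the highest wild-type pool, and the pools of each group lay close together. The difference was 0.33 ± 0.07 (SE, 4 pools a group), a 1.26-fold higher signal, with a limma adjusted p of 0.0423. A second probe at chr10:76707908-76707967 gave 0.31 ± 0.12, with an adjusted p of 0.179 over all probes. The direction held in 21 of 21 alternative settings, at 0.24 to 0.40, but the call held in 3 of 21. It was lost by limma without any 1 of the 8 pools (adjusted p 0.0529 to 0.130) and with each array's median subtracted (0.24, adjusted p = 0.311), quantile normalization (0.35, adjusted p = 0.0643) or normexp (0.40, adjusted p = 0.996).

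Col4a5 and Col4a6 encode chains that assemble together in the basement membranes of smooth muscle and some epithelia. Col4a6 (mm7 chrX:135829764-135829823, minus strand) read 0.87, 0.56, 0.89 and 0.70 in wild-type pools 1 to 4 and 1.30, 1.07, 1.51 and 1.10 in null pools 1 to 4. All null pools exceeded all wild-type pools. The difference of 0.49 ± 0.12 had a limma adjusted p of 0.0682, and 0.0209 with the replicate block. Col4a5 (mm7 chrX:136352769-136352828, plus strand) read -2.79, -2.84, -2.36 and -2.45 in the wild-type pools and -2.37, -2.35, -1.84 and -1.94 in the null pools. Each null pool was above the wild-type pool of its number by 0.43, 0.49, 0.53 and 0.51, but the groups overlapped because slide 2 read higher than slide 1 in both, by 0.41 in wild type and 0.47 in null. Its difference of 0.49 ± 0.17 gave an adjusted p of 0.144 by limma, 0.0175 with the replicate block and 0.00978 with the slide block, and the difference was 0.19 with normexp.

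Both genes are X-linked, and the pools differed in transcripts of the Y chromosome. Each Y-linked probe was set against its own highest pool, and these ratios were averaged. The mean ratio was 0.035, 0.80, 0.26 and 0.038 in wild-type pools 1 to 4 and 0.46, 0.80, 0.56 and 1.0 in null pools 1 to 4. The pools with little Y-linked signal were thus wild-type pools 1 and 4. With that level as a covariate, the difference was 0.66 for Col4a6 (limma adjusted p = 0.0633) and 0.54 for Col4a5 (adjusted p = 0.241).

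Col4a1 and Col4a2 encode the chains of the network found in nearly all basement membranes. Col4a1 read 2.34, 2.03, 2.34 and 2.22 in wild-type pools and 2.57, 2.29, 2.37 and 2.25 in null pools. Col4a2 read 2.48, 1.98, 2.37 and 2.24 in wild-type pools and 2.80, 2.42, 2.66 and 2.36 in null pools. The groups overlapped for both, although each null pool was above the wild-type pool of its number. The difference was 0.14 ± 0.10 for Col4a1 (limma adjusted p = 0.525), 0.24 within slide 1 and 0.03 within slide 2, and 0.29 ± 0.14 for Col4a2 (adjusted p = 0.292). Col4a4, a chain known from the mature glomerular network, differed by 0.05 ± 0.27 and differed between slides more than the rest of the class, by 0.59 in wild type and 0.74 in null. Col15a1, the relative of Col18a1, differed by 0.16 ± 0.18. Neither passed the test, and the 95% limits of Col4a4, from -0.57 to 0.67, were the widest of the class.

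**Figure D2:**
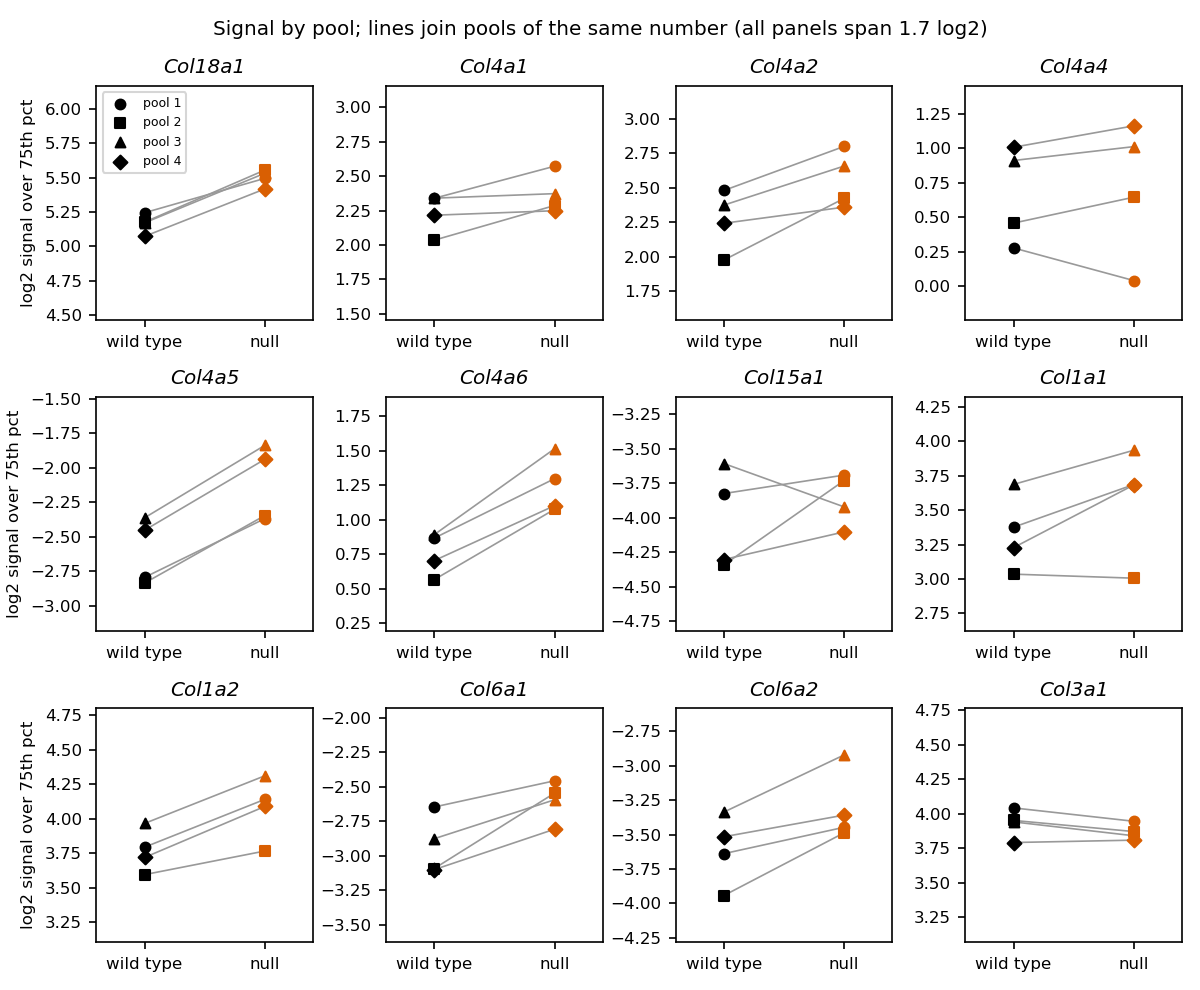
Log2 signal relative to the 75th percentile of the array (y axis, each panel spanning the same range) in 4 wild-type (black) and 4 null (orange) pools for 12 collagen genes, with symbols for the pool number and lines joining pools of the same number. The groups separate for Col18a1 and Col4a6, all 4 lines run upwards for Col4a1, Col4a2, Col4a5, Col1a2, Col6a1 and Col6a2 as well, and 3 of the 4 lines of Col3a1 run downwards.

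Among the fibrillar collagens 0 of 11 passed the limma test, 1 had an unadjusted p under 0.05, and the median difference was -0.03, with 5 means higher and 6 lower in the null pools. That median was 0.03 with normexp, and 0.02 within slide 1 against -0.02 within slide 2. The chains of type I had the highest differences. Col1a2 (mm7 chromosome 6) read 3.79, 3.59, 3.97 and 3.72 in wild-type pools and 4.14, 3.77, 4.31 and 4.09 in null pools. Each null pool was above its numbered partner, but null pool 2 fell among the wild-type values. The difference was 0.31 ± 0.13, 1.24-fold, with a limma adjusted p of 0.234, and 0.0346 with the replicate block. Col1a1, its partner in the type I molecule, read 3.38, 3.04, 3.69 and 3.23 in wild-type pools and 3.69, 3.01, 3.93 and 3.68 in null pools. Pool 2 was lowest in both groups, and the difference of 0.25 ± 0.22 had an adjusted p of 0.590.

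Type III, which forms fibrils with type I in vessel walls and loose tissue, gave the tightest bound of the fibrillar chains. Col3a1 read 4.04, 3.95, 3.94 and 3.79 in wild-type pools and 3.95, 3.87, 3.84 and 3.81 in null pools. The null values lay within the wild-type range. The difference was -0.07 ± 0.08 with 95% limits of -0.24 and 0.11 (limma adjusted p = 0.708). Col2a1, the chain of cartilage and notochord sheath, differed by -0.09 ± 0.14. Col5a1, which regulates fibril diameter, differed by 0.16 ± 0.15, and its partner Col5a2 by -0.08 ± 0.13. Col27a1, of cartilage fibrils, had the lowest difference of all 36 genes, -0.26 ± 0.14 (adjusted p = 0.368), and each null pool was below its numbered partner. Col11a1, Col11a2, Col24a1 and Col5a3 lay between -0.12 and 0.08.

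The glycine-repeat probe of Col5a1 printed above read -4.92, -4.84, -4.73 and -4.88 in wild-type pools and -4.62, -4.55, -4.65 and -4.45 in null pools. Its null pools were all above its wild-type pools, unlike those of the brighter Col5a1 probe. The difference was 0.27 ± 0.08, with an adjusted p of 0.108 over all probes. The glycine-repeat probe of Col11a2 differed by -0.008 ± 0.25.

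The 18 other collagens had a median difference of 0.04, and 0 of 18 passed the limma test, with an unadjusted p under 0.05 for 3. The mean was higher in the null pools for 13 and lower for 5. The median turned to -0.05 with each array's median subtracted, to -0.03 without a shift and to -0.11 with normexp, and was 0.15 within slide 1 and -0.01 within slide 2. The differences ran from -0.18 for Col9a3 to 0.79 for Col12a1.

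The largest fitted differences of the whole set came from fibril-associated chains near background. Col12a1, which bridges type I fibrils in dense connective tissue, was detected in 1 wild-type pool and in 3 null pools, meaning well above background. It read -5.38, -6.50, -6.04 and -6.53 in wild-type pools and -4.94, -5.52, -5.42 and -5.41 in null pools. Wild-type pool 1 stood above 3 of the null pools. In 3 of the 4 wild-type pools and 1 null pool the reading was under the lowest signal of any probe well above background on that array, so the difference of 0.79 is not a measured size, and it was -0.21 with normexp. Col20a1, detected in 2 wild-type pools and in 3 null pools, differed by 0.75 ± 0.36 (limma adjusted p = 0.288), and by -0.21 with normexp. Col14a1, another fibril-associated chain and well above background on all 8 arrays, differed by 0.26 ± 0.11 (limma adjusted p = 0.237, 0.0430 with the replicate block), and by 0.12 with normexp.

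Type VI collagen forms beaded filaments around cells from the products of Col6a1, Col6a2 and Col6a3. Col6a1 read -2.65, -3.09, -2.88 and -3.10 in wild-type pools and -2.46, -2.55, -2.59 and -2.81 in null pools. Each null pool was above its numbered partner, and null pool 4 overlapped the wild-type range. Its difference was 0.33 ± 0.13 (limma adjusted p = 0.188, 0.0480 with the replicate block), though -0.03 with normexp. Col6a2 differed by 0.30 ± 0.17, though by -0.09 with normexp, and Col6a3 by -0.17 ± 0.13, the latter with each null pool below its numbered partner. The probes of Col6a1, Col6a2 and Col18a1 lie within 456 kb of each other on chromosome 10 of mm7.

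Type IX chains, which coat type II fibrils, had differences of -0.15 ± 0.13 for Col9a1, 0.01 ± 0.12 for Col9a2 and -0.18 ± 0.19 for Col9a3. Each null pool was below its numbered partner for Col9a1 and Col9a3. The transmembrane collagens Col13a1, Col17a1, Col23a1 and Col25a1 had 4 higher means, by 0.03 to 0.19, and none passed (the smallest limma adjusted p was 0.795, with 0 unadjusted p under 0.05). Col13a1, a focal adhesion collagen, read -0.12, -0.02, 0.34 and 0.38 in wild-type pools and 0.05, 0.00, 0.35 and 0.30 in null pools, with the groups overlapping. Col16a1 differed by 0.21 ± 0.10, Col7a1 of anchoring fibrils by 0.11 ± 0.21, and the network chains Col8a1 and Col8a2 by -0.04 ± 0.10 and 0.03 ± 0.11.

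Collagen levels also varied between pools of the same genotype. In 12 of the 36 genes pool 2 was the lowest pool of both groups, and 8 of these were fibrillar, including Col1a1, Col1a2, Col2a1 and Col5a1. In 8 genes slide 2 differed from slide 1 by more than 0.3 in the same direction in both groups. Slide 2 was higher for Col11a2, Col17a1, Col25a1, Col4a4, Col4a5 and Col6a2, and lower for Col20a1 and Col9a3. The widest such gap was that of Col20a1, -1.11 in wild type and -0.67 in null. What sets these pools apart beyond slide and Y-linked level was not tested.

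**Figure D3:**
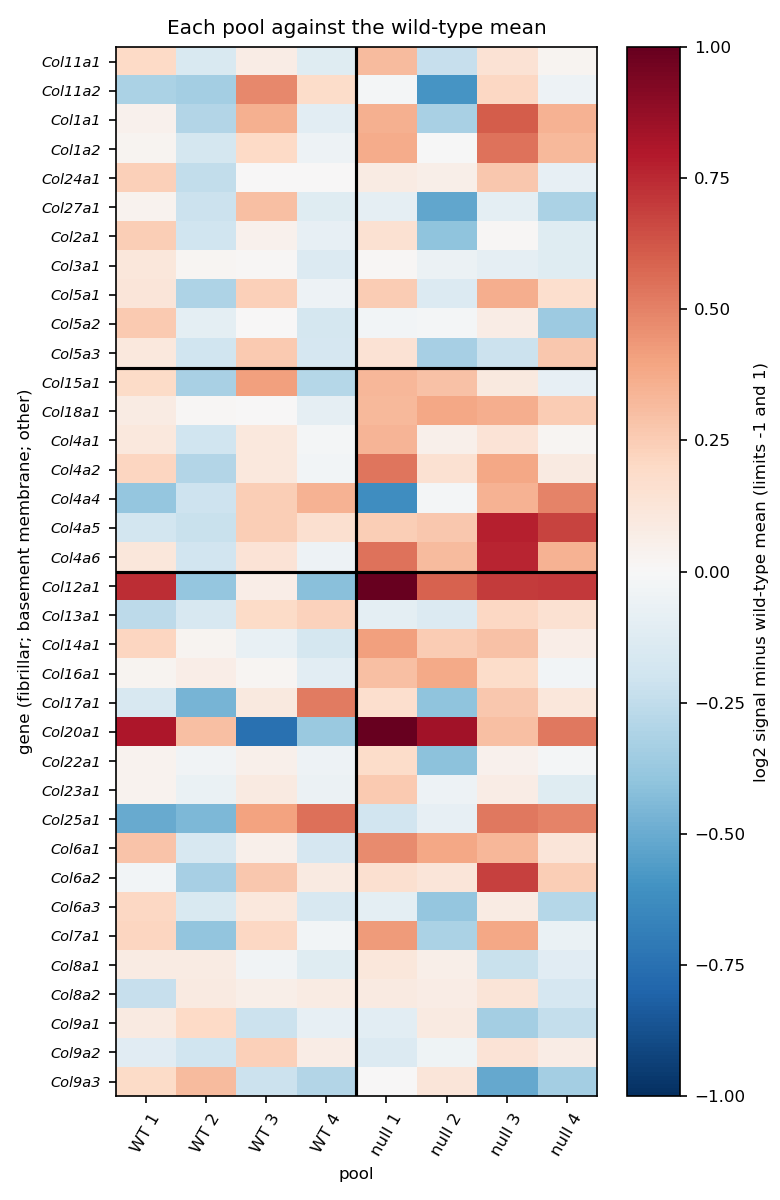
Log2 signal of each pool (columns, 4 wild type and 4 null) minus the wild-type mean of the gene (colour, with values past -1 or 1 shown at that limit) for the 36 tested collagens (rows, by class). All null columns lie above the wild-type mean (red, pale where the gap is small) for Col18a1, Col4a1, Col4a2, Col4a5 and Col4a6. They do so too for Col6a1, Col6a2, Col12a1, Col14a1 and Col20a1 among the other collagens. Pool 2 is the lowest of both groups in 8 of the 11 fibrillar rows.

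Of the 36 genes, 14 had more than 1 usable probe, and their probes gave the same direction in 10. The probes of Col1a1, Col2a1, Col4a2, Col6a2, Col11a1 and Col18a1 differed from each other by under 0.05. Directions were opposite for Col13a1, Col22a1, Col27a1 and Col4a6. The 3 Col4a6 probes gave 0.49, 0.39 and -0.02, and all 3 were well above background on every array.

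Col22a1, a chain of tissue junctions, had the sharpest disagreement. Its brightest probe (mm7 chr15:71881125-71881184) differed by -0.05 ± 0.13. The other (chr15:71951550-71951609) read -0.55, -0.39, -0.29 and -0.49 in wild-type pools and -0.08, 0.23, 0.03 and -0.02 in null pools. All null pools were above all wild-type pools on that probe alone, with a difference of 0.47 ± 0.10 and a limma adjusted p of 0.0443 over 25555 probes. With each probe tested by itself, 2 of 52 usable collagen probes passed, this one and that of Col18a1, against 3.46% of all probes.

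**Figure D4:**
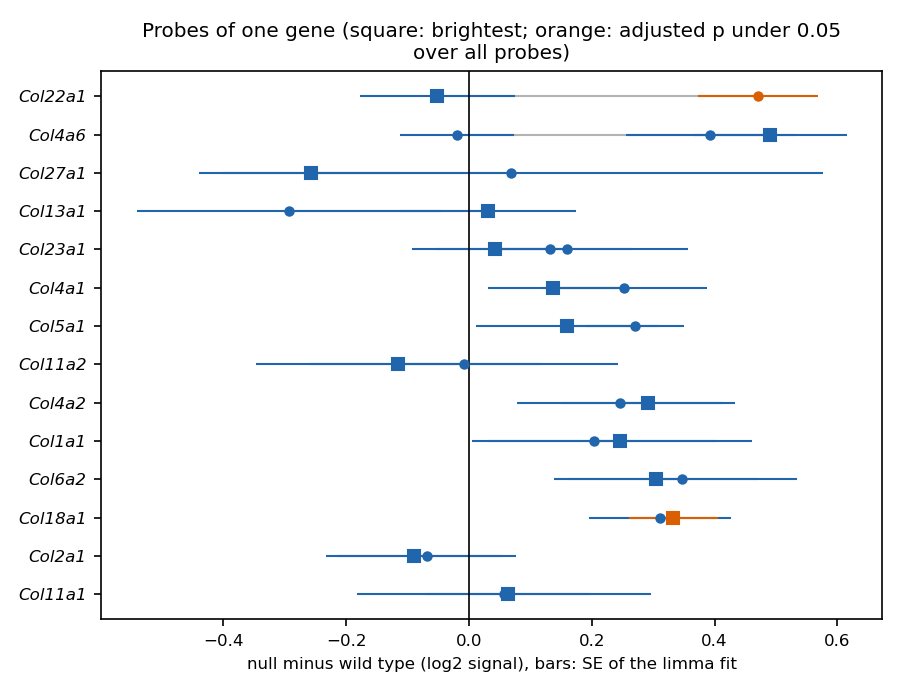
Differences between null and wild-type pools on the log2 scale (x axis), with the SE of the limma fit, for every usable probe of the 14 collagen genes that had several (y axis, ordered by the distance between their probes). Squares mark the brightest probe and orange marks an adjusted p under 0.05 over all probes, and the probes lie furthest apart for Col22a1 and Col4a6.

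Several enzymes that modify and cross-link the chains were called higher in the null pools. Of 18 tested genes of collagen biosynthesis and folding, 3 rose and 0 fell, against 4.2% of all genes called, with a list median of 0.13. P4ha1, a catalytic subunit of prolyl 4-hydroxylase, read 1.57, 1.49, 1.48 and 1.47 in wild-type pools and 2.60, 2.72, 2.41 and 2.21 in null pools. The groups were far apart, by 1.98-fold (limma adjusted p = 0.007). Plod2, a lysyl hydroxylase, rose 1.72-fold (adjusted p = 0.007), and P4ha2 rose 1.83-fold (adjusted p = 0.027), the latter over 3 null pools because null pool 3 had an outlier spot. The collagen chaperone Serpinh1 differed by 0.04 ± 0.11 and did not pass. The call of P4ha2 was lost without any 1 wild-type pool, without null pool 3, without a shift between arrays and with no filter on dim probes. It was also lost with the mean of all its probes (a difference of 0.23 against 0.88, limma adjusted p = 0.879). The call of Plod2 was lost with each array's median subtracted (adjusted p = 0.055). With normexp all 3 calls were lost (limma adjusted p 0.236 to 0.692), and 0 of all 17099 genes were called.

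Of 11 tested genes of procollagen processing and cross-linking, 1 rose and 0 fell, against 4.2% of all genes called, with a median of 0.19. Loxl2, a lysyl oxidase, rose 1.82-fold (limma adjusted p = 0.007), a call lost with normexp (adjusted p = 0.430). Lox differed by 0.94 ± 0.23 (limma adjusted p = 0.060). The Lox difference was 0.09 with normexp, 0.47 in the deposited value table, 1.46 within slide 1 and 0.41 within slide 2. Of 6 tested collagen receptors, 0 passed (limma, 0 with unadjusted p under 0.05), with a median of 0.14, and Itga1, the alpha chain of a collagen-binding integrin, had the smallest p (0.35 ± 0.16, adjusted p = 0.286), with a difference of -0.19 under normexp and 0.13 with the Y-linked covariate. Of 11 tested genes of collagen degradation and its inhibitors, 0 passed (limma, 4 with unadjusted p under 0.05), with a median of -0.03. The membrane-anchored protease inhibitor Reck had the smallest p (0.41 ± 0.10, limma adjusted p = 0.068). Over all genes 4.2% passed and 20.7% had an unadjusted p under 0.05.

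The laminins, nidogens and other partners of type IV collagen in basement membranes had a median difference of 0.35 over 13 tested genes, with 10 higher means. In 6 of the 13 all null pools were above all wild-type pools, against 8.08% of all genes. One of the 13 rose and 0 fell, against 4.2% of all genes called: Nid2, a nidogen that links laminin to type IV collagen, read 2.21, 1.91, 2.17 and 2.17 in wild-type pools and 2.54, 2.44, 2.65 and 2.47 in null pools. The groups did not overlap, and the difference was 1.33-fold (limma adjusted p = 0.0486). That call was lost with median subtraction, quantile normalization, no shift, normexp and the mean of all probes, and without any 1 of the 8 pools, whereas 8 of the 13 passed with the replicate block, as did 13.7% of all genes.

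**Figure D5:**
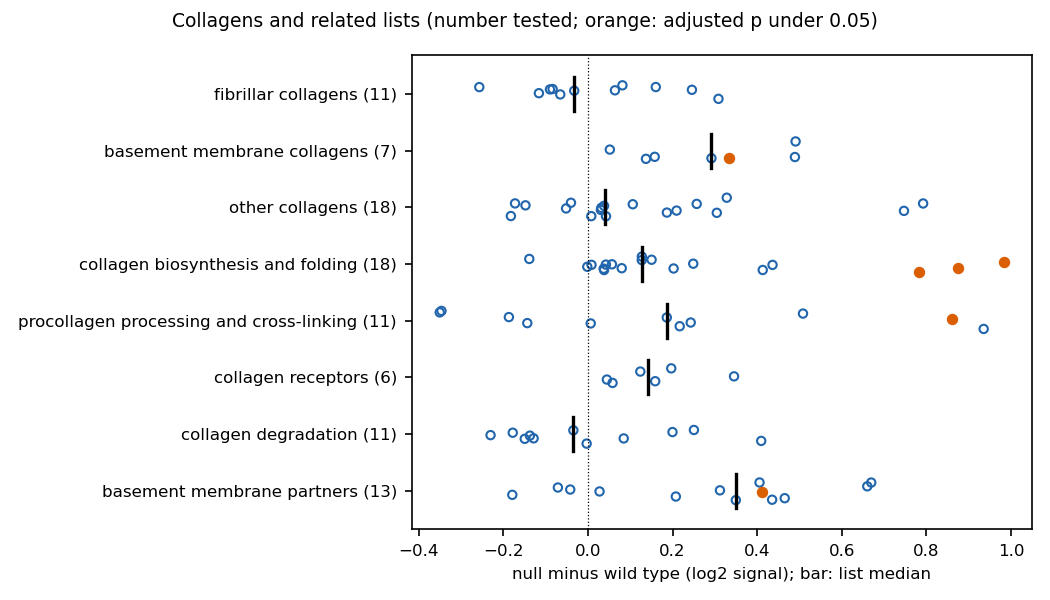
Differences between null and wild-type pools on the log2 scale (x axis) for each tested gene of the 3 collagen classes and of 5 lists of related genes (y axis, number tested in brackets), with black bars at the list medians and orange points for an adjusted p under 0.05. The basement membrane collagens and their partners have the rightmost medians, 0.29 and 0.35, and the orange points furthest right are P4ha1, P4ha2 and Plod2 among the biosynthesis genes and Loxl2 among the processing genes.

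Markers of cell types that make these collagens were read in the same pools, as sums of signals in units of the array's 75th percentile. Every marker list is set beside the shares over all genes, 4.2% called and 20.7% with an unadjusted p under 0.05 (limma). With so few genes a list, 0 or 1 called does not set a list apart. The parietal yolk sac endoderm, which lays down Reichert's membrane, had 0 of 6 markers called (limma, 2 with unadjusted p under 0.05), and its sum was 14.6 to 17.9 in wild-type and 18.1 to 21.3 in null pools. That list shares Lama1 and Lamb1 with the basement membrane partners and Sparc with the processing list. Its members split, with 3 of 6 means higher in the null pools, and the bright Sparc and Lamb1 made up much of the sum. The sum of the 3 unshared markers Thbd, Plat and Srgn was 2.83 to 3.08 in wild-type and 3.22 to 3.51 in null pools, with the mean higher in the null pools for 1 of them, Plat. Surface epithelium had 1 of 6 called, Krt19 higher (limma, 2 with unadjusted p under 0.05), with sums of 80.7 to 101 and 105 to 130. The mean was higher in the null pools for 6 of 6, but the bright Krt8 and Krt18 made up most of the sum. Krt8, Epcam, Cdh1 and Cldn6 each overlapped between the groups, whereas Krt18 and Krt19 did not. Endothelium had 0 of 8 called (1 with unadjusted p under 0.05), with sums of 14.0 to 16.6 and 14.7 to 18.1. The parietal and surface epithelium sums thus did not overlap between the groups, as was so for Col18a1 and Col4a6, and their part in those differences was not tested.

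The mesenchyme list had 1 of 8 called, Snai2 higher (limma, 1 with unadjusted p under 0.05). Its sums were 33.5 to 37.9 in wild-type and 32.0 to 39.1 in null pools. Notochord and chondrogenic precursors had 0 of 6 called (limma, 0 with unadjusted p under 0.05), with sums of 9.11 to 9.89 and 8.68 to 9.77. Visceral yolk sac endoderm had 0 of 7 called (0 with unadjusted p under 0.05), with sums of 12.1 to 22.2 and 11.6 to 21.8. Blood had 1 of 5 called, Klf1 lower (limma, 2 with unadjusted p under 0.05), with sums of 212 to 348 and 184 to 315. The mean was higher in the null pools for 0 of 5, and all null pools lay below all wild-type pools for Klf1 and Gata1. The bright globins Hbb-bh1 and Hba-x made up most of that sum. Decidua had 0 of 3 tested markers called (1 with unadjusted p under 0.05), with sums of 1.26 to 1.32 and 1.18 to 1.64, and its defining prolactin-family genes Prl8a2 and Prl3c1 were below the filter. The sums of all these lists overlapped between the groups, as did that of endothelium. The levels of 11 of 11 fibrillar collagens overlapped too. Most genes did so, since all null pools lay above all wild-type pools in 8.08% of all genes and below them in 8.06%.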

How the data were processed

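Total RNA of 8 pools, 4 wild type and 4 Arid3b-null, was read on 1-colour Agilent arrays. Per the file headers, each deposited intensity is the Cy3 processed signal of Feature Extraction 9.5.3.1, after background subtraction within the array and with no scaling between arrays. The deposited mean and background intensities served only the normexp alternative (offset 50). The deposited value table holds log2 values of 27108 probes, with column medians of 9.44 to 9.47; it correlated with the log2 signals at 0.988 or more, and its added constant and how it was made are not given in the sources used here.

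Control spots and outlier spots were left out, spots of a probe averaged, log2 taken and the array's 75th percentile subtracted. Kept probes rose well above background on 4 or more of 8 arrays (25555, among them 52 of the 78 collagen probes), and the brightest kept probe stood for a gene, named through RefSeq of GRCm38.p6 where the accession or symbol matched (22951 probes by accession, 6659 by symbol, 3109 by an older name, 8455 left as in the file). The filter counts arrays of either group. Genotype was fitted over all genes with limma 3.58.1 in R 4.3.3, with Benjamini-Hochberg adjustment and 0.05 as threshold. The fit was also run on simulated data. Those data held no slide or replicate effect and only changes larger than that of Col18a1, so they cannot speak to such effects or to smaller changes. Same-numbered pools deviated together from their group means (correlations 0.557, 0.635, 0.523 and 0.426), so values with the replicate block are given. Probe positions are the mm7 coordinates of the array files. The number of arrays limits precision.

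The members and lists were chosen with earlier results of these data known. Every called collagen was named, with the 2 highest signals and the smallest p of each class, chain partners, and up to 3 called genes of each related list or its smallest p. Further members were added so that each tested gene has a value or lies in a stated range. Scaling, background, filter, probe choice, the value table, blocks, a Y-linked covariate, slides and leaving out each pool were varied. The 4 probes that only newer names tie to collagens are outside the set.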

Additional observations from a re-analysis of the deposited data

Results flagged for a closer look

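Wild-type pool 1 stood apart for Col8a2, a network collagen. It read -2.99, against -2.70 for the nearest and -2.67 for the farthest of the other wild-type pools, a gap of 0.880 of the range, above Dixon's 95% critical value for 4 samples. This was 1 of 72 groups examined, and chance flags about 5% of groups.

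One probe of Col19a1, a fibril-associated chain left out of the comparison because too few arrays measured it, was well above background in 2 null pools and in 0 wild-type pools. It read -5.16 and -4.91 in null pools 1 and 2, which shared slide 1, and -7.33 and -7.58 in null pools 3 and 4. The wild-type pools read -7.86, -8.11, -7.92 and -8.05. The other 2 Col19a1 probes were not well above background on any array. The difference between the groups was not tested.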

How the results depend on the processing

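The single collagen gene call, Col18a1 higher, was the count in the fit reported. It was 0 genes, and 0 higher, with each array's median subtracted, quantile normalization, no shift, normexp, no filter, the deposited value table, the Y-linked covariate, within slide 1, within slide 2 and with the mean of all kept probes, and 0 to 0 when each pool was left out. In those settings 0 to 11 collagens had an unadjusted p under 0.05 (limma). It was 2 with the slide block and 8 with the replicate block, all higher. Calls of collagen probes were 2 in the fit reported, 1 with quantile normalization and 11 with the replicate block. In the other settings without a collagen gene call they were 0, where the probe fit was run, and 0 to 0 without a pool. Over all 25555 probes the calls were 884 in the fit reported, 879 with quantile normalization and 3030 with the replicate block.

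The median of the 18 other collagens was -0.11 with normexp, 0.18 with the Y-linked covariate and 0.15 within slide 1. Calls among biosynthesis genes (3) were 0 with normexp and within either slide, 5 with the replicate block, and 2 to 3 without a pool. Among processing genes (1) they were 0 with normexp and within either slide, 2 with the filter on all 8 arrays, 3 with the slide block, 4 with the replicate block, and 1 to 2 without a pool. Among degradation genes (0) they were 1 with the slide block. Among basement membrane partners (1) they were 0 with median subtraction, quantile normalization, no shift, normexp, no filter, the value table and within either slide, 2 with the filter on all 8 arrays and with the slide block, 3 with the Y-linked covariate, 8 with the replicate block, and 0 to 1 without a pool (Lama2 without null pool 4, and Lama2 in place of Nid2 with the mean of all probes). Calls over all genes, in part given above, changed with the setting as well, and were 837 of 15627 with the filter on all 8 arrays. They were 708 with quantile normalization, 658 with the mean of all kept probes, 462 of 16984 with the value table and 260 with the Y-linked covariate. With no filter they were 164 of 27670, within either slide 0, and without a pool 93 to 628. Lost calls of collagens and list genes are to be read beside these counts. The causes of these changes were not tested, except that fits within a slide hold fewer samples.

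No collagen changed direction in a setting where it passed, though 3 that passed with the replicate block were lower with normexp. Among those that did not pass, 12 changed sign with normexp, 8 with median subtraction and 7 without a shift. With another scaling, the sign changes were of differences of at most 0.0816 in size. With 4 pools a group, and dim probes such as Col12a1 and Col20a1 near background, small differences could not be resolved.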

Other observations

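Collagen genes that the array files list under other names were outside the set. Col26a1, listed as Emid2, was well above background on all 8 arrays. It read 4.03, 4.11, 4.09 and 3.86 in wild-type pools and 4.12, 4.47, 4.20 and 4.11 in null pools. The lowest null pool lay at the highest wild-type pool, and the difference was 0.20 ± 0.11 (limma adjusted p = 0.337). Col6a4, listed under a clone name, differed by -0.03 ± 0.26 (adjusted p = 0.968). Col6a6 was well above background on 0 of 8 arrays.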
